A study of Mus musculus with 4 samples.

Results

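Plasmacytoid dendritic cells (pDCs) made up 197 of the 51841 CD45+ leukocyte barcodes kept from subcutaneous KPC pancreatic tumours. They were chosen by their own counts. A barcode had to hold a UMI (1 counted mRNA molecule) of at least 2 of the 5 genes Siglech, Ccr9, Cox6a2, Klk1 and Pacsin1. It also had to have 0 UMIs of the T cell gene Cd3e, the B cell gene Ms4a1, the macrophage gene C1qa and the neutrophil gene Csf3r, and fewer than 20 UMIs summed over 7 antibody heavy-chain constant genes. Kept barcodes had 300 to 5000 genes and at most 6% mitochondrial UMIs. There were 65 pDCs in the untreated library, 49 in the STING agonist library, 57 in the LTbR agonist library and 26 in the library of the STING and LTbR agonist combination. Values by library are given in that order throughout.

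The KPC line is a mouse pancreatic cancer cell line (KRASLSL.G12D/+P53LSL.R172H/+Pdx-Cre) injected under the skin of syngeneic male C57BL/6 mice, 8 to 10 weeks old. Untreated mice bore the same tumours. The STING agonist group received ADU-S100, a cyclic dinucleotide that activates STING, as 2 µg into the tumour on day 0, about 10 days after tumour cell injection. The LTbR agonist group received an agonistic antibody to the lymphotoxin beta receptor as 4 doses of 100 µg into the peritoneum, the last on day 10, and the combination group received both agents. Tumours were taken on day 14, 10 tumours were pooled per group, and live CD45+ cells were sorted for 5′ single-cell RNA sequencing. The study's methods report more than 1 independent mouse experiment for single-cell sequencing, but this series held 1 library per group. There was thus no replicate here and no test between groups, so differences between groups cannot be told apart from differences between pools or libraries. Intervals are 95% intervals that cover counting error only.

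pDCs are dendritic cells specialised in sensing viral and self nucleic acids through TLR7 and TLR9 in endosomes and in secreting type I interferon. The transcription factor TCF4 (E2-2), an E protein that binds the E-box CANNTG, sets their identity, and ID2, which blocks E proteins, is characteristic of conventional dendritic cells (cDCs). In tumours, pDCs are often described as poor interferon producers. The study gave STING and LTβR agonists to promote lymphoid structures in tumours, and the comparisons below ask how abundant pDCs were and what they expressed under each agent.

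2 promoters are shown because the E-box is the letter pattern that E proteins bind: that of Siglech, the best-known selecting gene, and that of Paqr5, a leading pDC gene outside the rule. Each is the 250 bases before a RefSeq start (GRCm38.p6, the assembly named mm10), 5′ to 3′ on the gene's strand, with each CANNTG in capitals. Siglech lies at chr7:55767934-55768183 on the plus strand and Paqr5 at chr9:62026791-62027040 on the minus strand.
Siglech: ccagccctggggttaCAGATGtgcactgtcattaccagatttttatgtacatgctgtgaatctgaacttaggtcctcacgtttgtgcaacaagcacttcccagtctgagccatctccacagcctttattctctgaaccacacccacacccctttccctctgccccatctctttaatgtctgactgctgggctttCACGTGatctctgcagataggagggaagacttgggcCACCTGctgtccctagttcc
Paqr5: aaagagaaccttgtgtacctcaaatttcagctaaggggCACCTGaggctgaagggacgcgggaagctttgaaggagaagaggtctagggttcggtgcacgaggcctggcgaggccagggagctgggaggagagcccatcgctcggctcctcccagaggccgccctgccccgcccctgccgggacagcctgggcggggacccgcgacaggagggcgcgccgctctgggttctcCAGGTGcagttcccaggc
The Siglech window held 3 E-boxes, 1 of them CACCTG, which is CAGGTG on the other strand, and the Paqr5 window held 2, both of that form. The Pacsin1 window (chr17:27684989-27685238, plus strand) held none. Of the 4 selecting genes with a promoter in the table, 3 had an E-box in it. Of 16 promoters belonging to 12 of the 15 leading genes listed further on, 12 (75.0%) held CANNTG and 6 (37.5%) held CAGGTG. The same shares over all 32851 promoters were 66.2% and 17.2%. A match describes letters in this window and nothing more.

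Across the series, kept barcodes numbered 7776, 14326, 14041 and 15698 of 8730, 15404, 14634 and 16322 deposited. The median kept barcode held 4653, 3235, 3773 and 2235 UMIs. The median pDC held 5415, 5133, 5190 and 1952 UMIs, so pDCs of the combination library were the shallowest, and 14 of its 26 had fewer than 2000. Summed over pDCs the libraries held 325412, 278707, 300415 and 73685 UMIs. A score for doublets, made by simulating mixed cells, marked 10 of the 197 pDCs (2, 1, 7 and 0). Libraries shared 100 to 177 of their kept barcodes with another library by sequence, and 2 pDCs were among these.

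**Figure D1:**
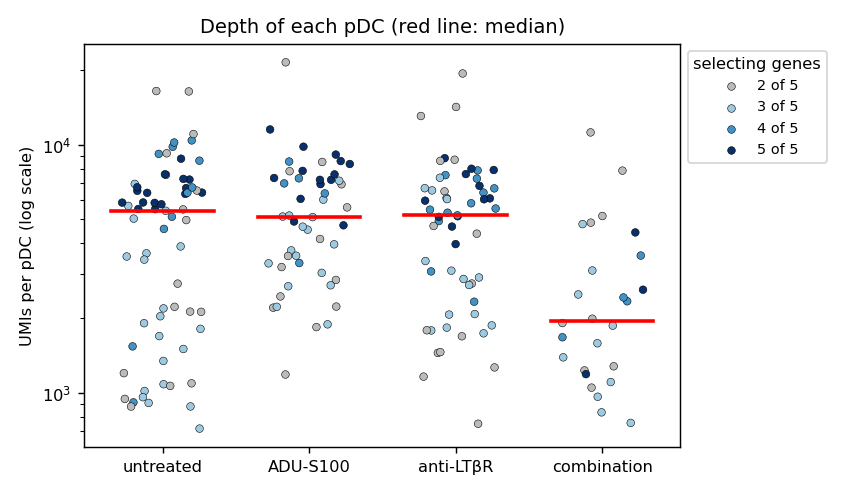
UMIs per pDC (log axis) in each library, with ADU-S100 for the STING agonist and anti-LTβR for the LTbR agonist, 1 point per pDC, coloured by how many of the 5 selecting genes had a UMI, with the median as a red line. The combination library has 26 pDCs with a median of 1952 UMIs, against medians of 5133 to 5415 in the other libraries.

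Siglech, a sialic-acid-binding-type receptor characteristic of mouse pDCs, was found in 183 of the 197. Ccr9, a homing receptor for the chemokine CCL25, was found in 173. Pacsin1, an adaptor in membrane trafficking, was found in 156, Cox6a2, the muscle form of a cytochrome c oxidase subunit, in 92, and the kallikrein Klk1 in 56. These 5 chose the cells, so their levels are a description. Siglech stood at 2240, 2332, 1854 and 1384 CPM, which are UMIs of the gene scaled to a total of 1e6 pDC UMIs in the library, and at 1.85 to 5.68 CPM in the other kept barcodes. Cox6a2 stood at 722, 804, 682 and 584 CPM in pDCs, while Cox6a1, the widely expressed form of the subunit, was at the same level in pDCs as elsewhere (mean log2 ratio −0.06).

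The rule's edge ran through a mixed group. Exactly 2 selecting genes were found in 55 pDCs and 3 to 5 in 142, while 558 further barcodes that met every other limit had 1. Tcf4, not used by the rule, was found in 98.6% of pDCs with 3 to 5 selecting genes, in 81.8% of those with exactly 2 and in 42.7% of barcodes with 1. The pDC transcription factor gene Bcl11a was found in 86.6%, 67.3% and 15.4%, and Spib, another such factor, in 50%, 5.45% and 3.58%. For Spib, pDCs with exactly 2 selecting genes were near barcodes with 1, while for Bcl11a they were nearer to pDCs with more. Median depth was 2852 UMIs with exactly 2 selecting genes and 5128.5 with 3 to 5, but 1991 and 1868 in the combination library alone, and its part in these detection rates was not tested.

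Negative genes removed cells that also carried pDC transcripts. Of 277 kept barcodes with at least 2 selecting genes, 49 held C1qa, 38 held Csf3r, 7 held Cd3e and 1 held Ms4a1, and 1 more was dropped for heavy-chain UMIs. Csf3r was held by 21 of 80 such barcodes in the STING agonist library, against 7 of 87, 5 of 71 and 5 of 39 in the others. In the 80 barcodes removed in this way, Tcf4 was found in 97.5% and Grm8, a leading pDC gene, in 65%, against 41.2% and 0.302% among other kept barcodes. Their median depth was 7491.5 UMIs, against 3176.5 in the others.

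pDCs with exactly 2 selecting genes carried transcripts of cDC1, a type of conventional dendritic cell. Xcr1, the chemokine receptor that defines cDC1, was found in 11 pDCs (5, 1, 3 and 2), each with exactly 2 selecting genes. Of the 11 pDCs whose only selecting genes were Ccr9 and Pacsin1, 9 held Xcr1. Clec9a, a cDC1 receptor for dead cells that pDCs are also known to express at low level, was found in 77 pDCs, at 38.2% and 39.4% with 2 and with 3 to 5 selecting genes, so it did not divide them. By rules of the same form, 58 pDCs also counted as cDC1, 21 as cDC2 and 1 as mature dendritic cell, and 127 (42, 28, 36 and 21) met the pDC rule only.

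Markers outside the rule carried the pDC label most clearly in the 142 pDCs with 3 to 5 selecting genes. Their summed level of 18 pDC surface and secreted genes outside the rule was 18295, 20155, 18091 and 19730 CPM, and that of 9 pDC transcription factor genes was 13509, 15207, 12599 and 12194 CPM. In the 55 with exactly 2 selecting genes the same sums were 6073, 11811, 4349 and 5858 CPM, and 7293, 13379, 5744 and 8212 CPM. The order reversed for cDC transcription factor genes, at 112 to 206 CPM with 3 to 5 selecting genes and 849 to 1199 CPM with 2. cDC1 markers likewise stood at 377 to 513 CPM and at 5765, 1446, 2910 and 2792 CPM. For these 4 lists, the ranges over libraries of the 2 sets did not overlap except for pDC transcription factors. cDC2 markers did not follow cDC1 markers. They stood at 361, 430, 264 and 431 CPM with 3 to 5 selecting genes and at 107, 216, 131 and 438 CPM with 2. The cells with exactly 2 held 26.0%, 26.5%, 30.5% and 49.6% of the pDC UMIs. The largest share was in the combination library, so several results for all pDCs are set beside the values with 3 to 5 selecting genes.

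**Figure D2:**
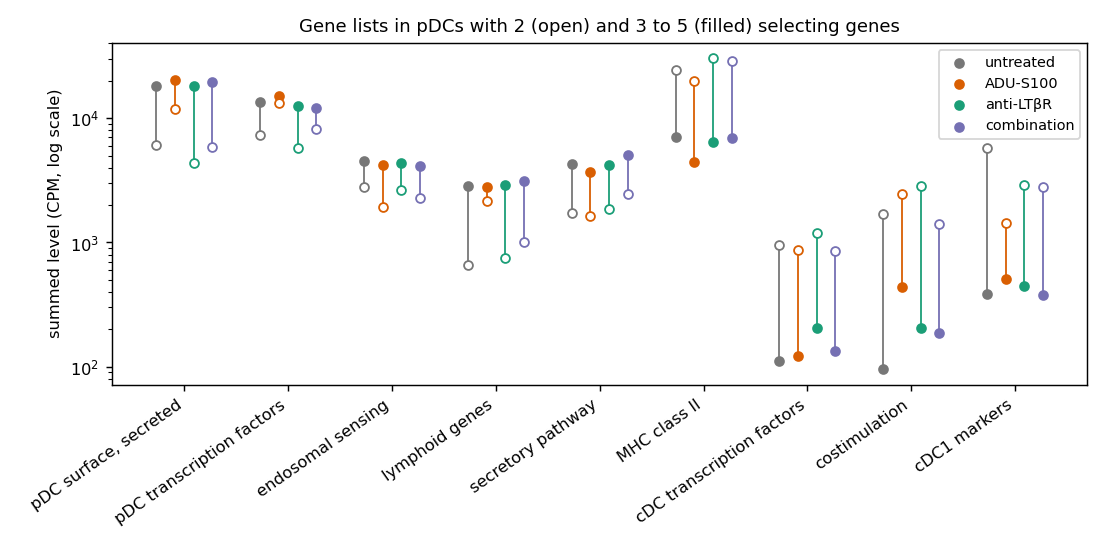
Summed CPM (log axis) of 9 gene lists in pDCs with exactly 2 selecting genes (open symbols) and with 3 to 5 (filled symbols), by library. MHC class II, costimulation, cDC factors and cDC1 markers lie higher in the open symbols, and pDC surface genes, pDC factors, sensing, secretory and lymphoid genes lie higher in the filled ones.

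Markers of lymphocytes, macrophages, monocytes and neutrophils were lower in pDCs than in other barcodes, while those of some other cells were not. The rule had removed barcodes with Cd3e, Ms4a1, C1qa, Csf3r or many heavy-chain UMIs. Low levels of T cell, B cell, macrophage, neutrophil and plasma cell markers were therefore partly set by the choice of cells. All 5 B cell markers and all 4 mast cell and basophil markers were at 0 UMIs, and T cell markers summed to 0, 3.59, 6.66 and 0 CPM. Macrophage markers summed to 108, 334, 243 and 81.4 CPM, against 5069 to 7487 CPM in other barcodes. Monocyte markers summed to 39.9, 219, 456 and 0 CPM and neutrophil markers to 33.8, 43.1, 280 and 13.6 CPM, highest in the LTbR agonist library for both. Retnlg and Cxcr2, which define neutrophils, were at 0 UMIs. NK cell markers summed to 6.15, 0, 136 and 136 CPM, against 193 to 444 CPM elsewhere. Mature dendritic cell markers summed to 27.7, 53.8, 89.9 and 231 CPM, against 226, 122, 196 and 154 CPM elsewhere, so that the combination alone was above the other barcodes. cDC1 markers stood above other barcodes in every library (761 to 1782 against 220 to 417 CPM), and so did fibroblast and endothelial markers (176 to 499 against 86.8 to 108 CPM). Plasma cell markers summed to 67.6, 68.2, 340 and 502 CPM, carried by Jchain and Igkc with Derl3, Tnfrsf17 and Sdc1 at 0, and they followed the other barcodes (1425, 1008, 6721 and 9084 CPM).

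pDCs were a smaller share of CD45+ barcodes in every treated library than in the untreated one. They were 0.836% (exact interval 0.646 to 1.06), 0.342% (0.253 to 0.452), 0.406% (0.308 to 0.526) and 0.166% (0.108 to 0.243) of kept barcodes. The share with the STING agonist was 0.409 times that of untreated tumours (0.283 to 0.592) and that with the LTbR agonist 0.486 times (0.341 to 0.692). The combination stood at 0.198 times untreated (0.126 to 0.312), 0.484 times the STING agonist (0.301 to 0.779) and 0.408 times the LTbR agonist (0.257 to 0.648). None of these 5 intervals includes 1. With at least 3 selecting genes required, the ratios were 0.388, 0.463, 0.172, 0.443 and 0.371.

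Among the ratios to untreated, what the share is taken over, and thinning to an equal depth, moved that of the STING agonist most. Neutrophil barcodes were frequent there, with 7293 of 14326 kept barcodes free of Csf3r, against 5968 of 7776 in untreated tumours. Over Csf3r-free barcodes the STING agonist share was 0.617 times untreated (0.426 to 0.892). With every barcode thinned to 2000 UMIs and shallower ones left out, pDCs numbered 42 of 6141, 50 of 10206, 43 of 10458 and 10 of 8570, and the ratio was 0.716 (0.476 to 1.08), an interval that includes 1. Thinned, the LTbR agonist stood at 0.601 times untreated (0.393 to 0.919) and the combination at 0.171 (0.0857 to 0.34), and the combination was 0.238 times the STING agonist (0.121 to 0.469) in place of 0.484. The rule was applied again to thinned counts, so a barcode that lost its UMIs of a negative gene could enter. Before thinning the STING agonist library had 49 pDCs, 3 of them under 2000 UMIs. The part of such entries in the ratios was not tested. A share of sorted cells cannot tell fewer pDCs from more of other leukocytes.

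Taken as a share of dendritic cells, pDCs gave another picture for the STING agonist. They were 12.6%, 13.1%, 7.89% and 4.11% of the summed pDC, cDC1, cDC2 and mature dendritic cell sets, in which the last 3 held only barcodes that met no other dendritic cell rule. The STING agonist share was 1.04 times untreated, with an interval of 0.733 to 1.46 that leaves room for a moderate difference either way. The LTbR agonist stood at 0.624 times (0.446 to 0.875) and the combination at 0.325 times (0.21 to 0.505). Over every barcode that met any of the rules, the 3 ratios were 1.04, 0.623 and 0.336, and with pDCs that met only the pDC rule they were 0.927 (0.586 to 1.47), 0.600 (0.391 to 0.923) and 0.392 (0.235 to 0.652), settings chosen after seeing the data. cDC1 (667 barcodes), cDC2 (953) and mature dendritic cells (425) gave other orders. The cDC2 share was 1.72 times untreated with the LTbR agonist (1.41 to 2.1) and 1.19 times in the combination (0.972 to 1.46). The cDC1 share in the combination was 1.48 times that with the STING agonist (1.18 to 1.85), where the pDC ratio was 0.484. Among these 4 sets, the pDC share was lowest in the combination, and the other sets were lowest with the STING agonist.

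**Figure D3:**
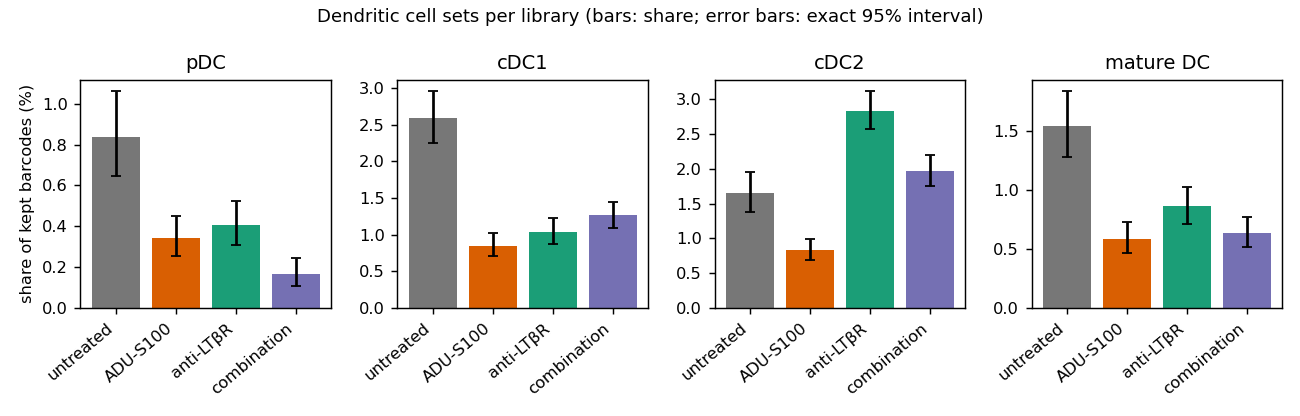
Percent of kept barcodes that were pDCs, cDC1, cDC2 and mature dendritic cells in each library, as bars from 0 with exact 95% intervals. pDCs are at 0.836% in the untreated library and 0.166% in the combination library, while cDC2 are highest in the LTbR agonist library.

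The genes that set pDCs apart were led by transcripts nearly absent elsewhere. Of 5981 genes found in at least 10% of pDCs, 658 (11.0%) were at least 2-fold higher in pDCs than in other barcodes in 4 of 4 libraries and 180 (3.01%) at least 2-fold lower. The 15 with the highest lowest-library ratio were Myh13, Fyb2, Dntt, Rai2, Paqr5, Sh3bgr, Grm8, Mn1, Atp2a1, Klk1b27, Chdh, Cd300c, Ptcra, Pdzd4 and Foxr1. Since these cells were chosen by related counts, no test applies. Klk1b27 is a near copy of Klk1 and other kallikrein genes, so reads may be split between them.

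Dntt, the terminal transferase that adds bases to antigen receptor joints in lymphoid precursors, was found in 121 pDCs, at 446, 509, 446 and 475 CPM, and at 0.294 to 0.987 CPM elsewhere (mean log2 ratio 9.73). Paqr5, a membrane progestin receptor, was found in 109, at 227, 341, 186 and 258 CPM (mean log2 ratio 8.69). Cd300c, a leukocyte surface receptor, was found in 88, at 203, 219, 143 and 149 CPM (mean log2 ratio 7.46). None of these 3 genes passed the limit for a difference in any of the 5 comparisons. Grm8, a metabotropic glutamate receptor, was found in 155, at 2130, 2364, 1262 and 841 CPM (mean log2 ratio 8.80). It was lowest in the combination, at a log2 ratio of −1.33 to untreated (−1.74 to −0.96) and −1.48 to the STING agonist (−1.89 to −1.11). The muscle myosin Myh13 was found in 29 pDCs, 14 of them untreated, at 135, 57.4, 33.3 and 27.1 CPM. Fyb2, an adaptor of T cell receptor signalling, was found in 45, at 218, 71.8, 59.9 and 67.9 CPM. Both were lower in each treated library than in the untreated one, Fyb2 by log2 ratios of −1.58, −1.84 and −1.56. With the LTbR agonist the remaining barcodes had log2 ratios of −1.44 for Myh13 and −1.77 for Fyb2.

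Lymphoid genes that pDCs are known to share were part of the profile, with 5 of the 9 listed at least 2-fold higher than elsewhere in 4 of 4 libraries. The share over the 5981 genes found in at least 10% of pDCs was 11.0%, and 7 of the 9 were among these. Blnk, a B cell receptor adaptor, was found in 170 pDCs, at 1103, 1485, 1019 and 828 CPM, and Iglc3, a lambda light-chain constant gene, in 73. Ptcra, the pre-T-cell receptor alpha chain, was found in 23 pDCs, and the recombinase gene Rag1 had 1 UMI. Cdh5, the vascular endothelial cadherin, had been listed as an endothelial marker. It was found in 53 pDCs, none of them with exactly 2 selecting genes, at 83, 136, 120 and 122 CPM against 0.398 to 1.12 CPM elsewhere. Cdh5 was singled out after its values were seen, and the whole fibroblast and endothelial list summed to 458, 499, 350 and 176 CPM.

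Set beside the other dendritic cells, pDCs that met only the pDC rule more often held Runx2, Bcl11a and Tlr7. Runx2, a factor for pDC exit from bone marrow, was found in 92.1% of them, against 32.1% of cDC1, 25.5% of cDC2 and 44.2% of mature dendritic cells. Bcl11a was found in 82.7%, 14.5%, 22.8% and 4.24%, and Tlr7 in 41.7%, 7.05%, 4.2% and 0.471%. Id2 ran the other way, at 8.66%, 51.7%, 44.6% and 74.1%. Flt3, the receptor for the dendritic cell growth factor, was shared, at 59.1%, 42.4%, 24% and 74.8%. Il12a, encoding the p35 chain of interleukin-12, was found in 25.2% of pDCs and in 0.45%, 0.42% and 0% of the others. Median depths differed between sets, and their part in these detection rates was not tested.

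**Figure D4:**
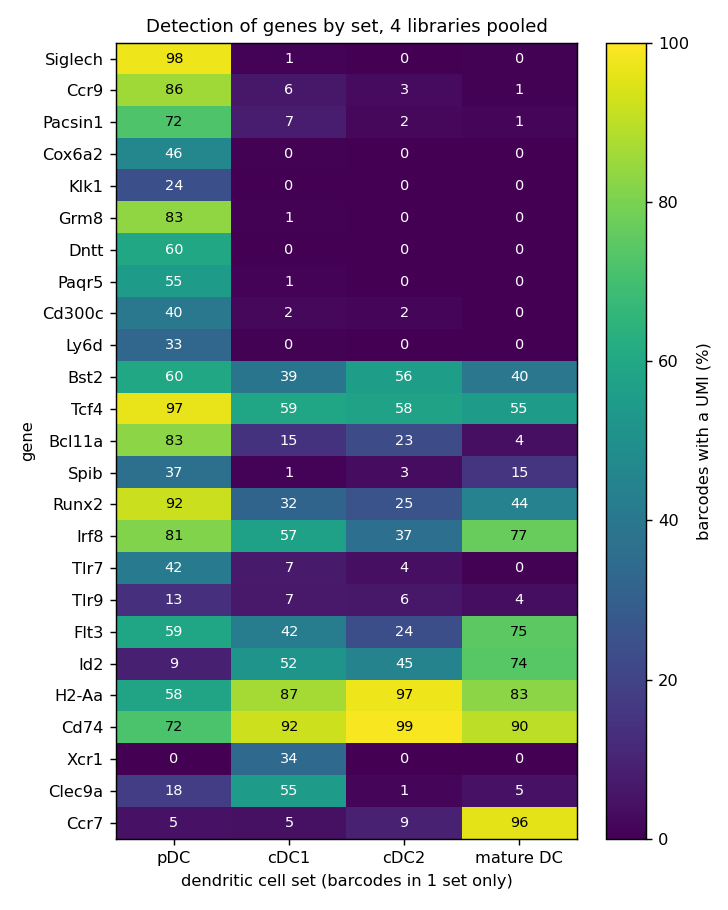
Heat map of the percent of barcodes with a UMI of 25 genes in pDCs that met only the pDC rule, cDC1, cDC2 and mature dendritic cells, libraries pooled. Tcf4, Runx2 and Bcl11a are at 82.7% or more in pDCs, and Id2 is at 8.66% in pDCs and 44.6% or more in the other sets.

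For differences between groups, pDC UMIs were summed per library. A gene was called where the ratio was at least 2-fold and its interval excluded 1, among genes with at least 30 UMIs and a UMI in at least 10 pDCs of the 2 libraries. With the STING agonist, 156 of 3898 genes were higher than in untreated pDCs (4.00%) and 120 lower (3.08%). With the LTbR agonist, 147 of 4061 were higher (3.62%) and 68 lower (1.67%). In the combination, 84 of 2767 were higher (3.04%) and 104 lower (3.76%) than in untreated pDCs. Against the STING agonist, the combination had 78 of 2506 higher (3.11%) and 184 lower (7.34%), and against the LTbR agonist 58 of 2699 higher (2.15%) and 96 lower (3.56%). Scaling the combination and STING agonist libraries by their median ratio, in place of total UMIs, moved the higher share of calls between them from 29.8% to 41.3%. The balance in the combination also turned with the floor. With no floor on UMIs, 70.8%, 61.7% and 55.8% of calls were higher against untreated, the STING agonist and the LTbR agonist, in place of 44.7%, 29.8% and 37.7%. With 2 UMIs added in place of 0.5, the first of these was 53.9%. Comparisons that share a library are not independent of each other. With 3 to 5 selecting genes required, 64 of the 156, 36 of the 147 and 15 of the 84 genes higher than in untreated pDCs were called again.

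pDC surface and secreted genes were called against untreated in small numbers. All 18 were at least 2-fold higher in pDCs than elsewhere in 4 of 4 libraries, against 11.0% of the 5981 genes found in at least 10% of pDCs. Against untreated pDCs, 1 of 18 was called higher with each of the STING agonist, the LTbR agonist and the combination, against 4.00%, 3.62% and 3.04% of all genes, and 2 were called lower in the combination, where 3.76% of all genes were. Median log2 ratios were 0.30, −0.23 and −0.36, against 0.01, 0.00 and −0.02 over all genes tested. Bst2, the pDC antigen PDCA-1 and antiviral tetherin, stood at 2289, 1877, 2060 and 1805 CPM and at 320 to 400 CPM elsewhere.

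Ly6d and Ly6c2, both of the Ly6 family, stood higher in each treated library, but not every ratio passed the 2-fold limit. Ly6d, a surface protein of early lymphoid and pDC precursors, stood at 387, 538, 879 and 1018 CPM, with log2 ratios to untreated of 1.18 for the LTbR agonist (0.87 to 1.50) and 1.40 for the combination (0.96 to 1.82). A single pDC held 40% of its UMIs in the combination, and with 3 to 5 selecting genes the levels were 523, 728, 1265 and 1992 CPM. Ly6c2 stood at 612, 1245, 1208 and 1113 CPM, with log2 ratios of 1.02 (0.77 to 1.28), 0.98 (0.73 to 1.24) and 0.87 (0.47 to 1.24). Only the first passed the 2-fold limit, and the 3 treated libraries lay close together above the untreated one.

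Klra17 and Upb1 were the 2 listed genes called lower in the combination than in untreated pDCs. Klra17, a C-type lectin of the Ly49 family, stood at 194, 255, 126 and 81.4 CPM, a log2 ratio of −1.15 for the combination to untreated (−2.75 to −0.05). Upb1, an enzyme of pyrimidine breakdown, had 53, 36, 29 and 3 UMIs, a log2 ratio of −1.79 (−4.32 to −0.37). Between the combination and the STING agonist, 4 of the 18 surface genes were called lower in the combination, and 184 of 2506 over all genes.

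No pDC transcription factor gene was called against untreated. By the 2-fold limit, 0 of 9 were called for any agent, which is also what the shares over all genes (1.67% to 4.00% per direction) give for so few genes, with median log2 ratios of −0.01, −0.14 and −0.08. Irf8, needed for pDC function, stood at 2268, 1690, 2317 and 2280 CPM, and Spib at 209, 136, 190 and 190 CPM. Tcf4 stood highest with the STING agonist, at 4210, 7377, 3625 and 3515 CPM. The combination was lower than the STING agonist for Tcf4 (log2 ratio −1.07, −1.26 to −0.88) and for Zeb2, a repressor of Id2 (−1.16, −1.69 to −0.69). Irf7, the master regulator of type I interferon genes, stood at 166, 165, 240 and 271 CPM, against 140 to 168 CPM elsewhere. In untreated tumours, pDCs and other leukocytes had nearly the same Irf7 level.

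Nucleic acid sensing genes were present, and the 7 interferon genes examined had no UMI. Tlr7 was found in 84 pDCs, at 206, 208, 210 and 109 CPM, against 25 to 39.3 CPM elsewhere. Tlr9 was found in 30, at 36.9, 35.9, 33.3 and 54.3 CPM. Unc93b1, the chaperone that carries both receptors to endosomes, stood at 738, 628, 726 and 366 CPM, Slc15a4, a transporter they need, at 148, 126, 79.9 and 95 CPM, and Pld4, an endosomal nuclease, at 615, 671, 602 and 556 CPM. Of 12 sensing genes tested with each single agonist and 11 with the combination, 0 were called against untreated in either direction, a count that the shares over all genes (1.67% to 4.00%) also give. The genes Ifna1, Ifna2, Ifna4, Ifna5, Ifnb1, Ifnl2 and Ifnl3 were at 0 UMIs of 978219, which allows up to 3.07 CPM over all pDCs and up to 40.7 CPM in the combination library. The receptor genes were present, Ifnar1 at 332, 409, 386 and 312 CPM and Ifnar2 at 685, 635, 543 and 489 CPM, each at least 2-fold above the other barcodes in 4 of 4 libraries.

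Few differences in interferon-stimulated genes passed the limit on day 14. Of 34 listed, 2 were at least 2-fold higher in pDCs than elsewhere in 4 of 4 libraries and 11 were at least 2-fold lower. The shares over the 5981 genes found in at least 10% of pDCs were 11.0% and 3.01%, but only 18 of the 34 were found that often. Against untreated pDCs, 2 of 13 tested were called higher with the STING agonist, 0 of 17 with the LTbR agonist and 0 of 10 with the combination, against 4.00%, 3.62% and 3.04% of all genes. The medians of the tested genes were 0.12, 0.32 and 0.28, with 7 of 13, 14 of 17 and 7 of 10 above 0. Ifi203, a nuclear DNA-binding protein of the p200 family, stood at 166, 348, 190 and 109 CPM and was found in 24, 35, 28 and 6 pDCs. Its log2 ratio was 1.06 for the STING agonist to untreated (0.57 to 1.58) and −1.60 for the combination to the STING agonist (−2.93 to −0.65). In other barcodes Ifi203 stood at 244 to 279 CPM in every library. The other was Usp18, a brake on interferon signalling, in which a single pDC held 51.7% of the STING agonist UMIs (log2 ratio 1.06, and 2.16 with 3 to 5 selecting genes). Isg15 was found in 32 pDCs, at 73.8, 118, 103 and 109 CPM, below the 349 to 644 CPM elsewhere.

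The targets of the 2 agents were found in unequal numbers of pDCs. Sting1 was found in 57 pDCs, at 61.5, 104, 89.9 and 122 CPM, against 56.4 to 75.8 CPM elsewhere. Ltbr was found in 9 pDCs, with 3, 2, 4 and 1 UMIs, at 7.18 to 13.6 CPM against 29.3 to 34.1 CPM elsewhere. Map3k14, encoding the NF-κB-inducing kinase downstream of LTβR, stood at 43, 144, 93.2 and 217 CPM and was called higher under each agent. Single pDCs held 57.5% and 43.8% of its UMIs in the STING agonist and combination libraries, and with 3 to 5 selecting genes the levels were 16.6, 58.6, 47.9 and 0 CPM.

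Almost no MHC class II gene was called against untreated. With the STING agonist 0 of 8 tested were called lower, against 3.08% of all genes, and in the combination 1 of 8 was called higher, against 3.04%. Of the 8 ratios to untreated, 0 were above 0 with the STING agonist (median log2 ratio −0.44), 5 with the LTbR agonist (0.14, 0 called) and all 8 in the combination (0.61). The medians in the remaining barcodes were −0.35, −0.08 and 0.23. 5 of 7 were called higher in the combination than with the STING agonist (median 1.05, remaining barcodes 0.61), where 3.11% of all genes were. pDCs with exactly 2 selecting genes held 49.6% of pDC UMIs in the combination, against 26.0% in the untreated library and 26.5% with the STING agonist, and their part in these medians was not tested beyond the values that follow. H2-Aa, the class II alpha chain, stood at 2329, 1650, 2413 and 3040 CPM, and Cd74, the invariant chain, at 5412, 3760, 6358 and 8441 CPM. A single pDC held 44.3% of the H2-Aa UMIs in the STING agonist library and 38.4% in the combination. With 3 to 5 selecting genes H2-Aa stood at 1478, 816, 1169 and 1157 CPM, and the combination's median log2 ratio to untreated was −0.07. Summed class II levels were 7089, 4426, 6494 and 6945 CPM in those pDCs, and 24400, 20028, 30409 and 28959 CPM in pDCs with exactly 2 selecting genes. The latter sums were close to those of all other barcodes (22559, 17995, 21733 and 27314 CPM). The STING agonist sum was the lowest of the 4 libraries in both sets of pDCs. The combination sum was above the untreated one in pDCs with exactly 2 selecting genes, but there it was below that of the LTbR agonist.

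Costimulation genes were found mainly at the edge of the rule, but Cd86 with the STING agonist was also found in pDCs with 3 to 5 selecting genes. Cd86, a ligand of CD28, stood at 86, 395, 206 and 54.3 CPM against 854 to 1038 CPM elsewhere. Its log2 ratio to untreated was 2.18 with the STING agonist (1.59 to 2.85), where a single pDC held 46.4% of its UMIs. With the LTbR agonist 3 of 5 costimulation genes tested were called higher than untreated, against 3.62% of all genes: Cd80 (1.30, 0.32 to 2.45), Cd83 (1.23, 0.75 to 1.75) and Cd86 (1.25, 0.60 to 1.96). Single pDCs held 32.3% to 39.6% of their UMIs in that library. All 3 fell below the floor for a comparison with at least 3 selecting genes required, and Cd80 also with marked doublets removed. With 3 to 5 selecting genes Cd86 stood at 12.5, 303, 71.9 and 0 CPM, and its log2 ratio with the STING agonist was 4.39. Cd83, a maturation marker, was found in 30.9% of pDCs with exactly 2 selecting genes and in 2.11% of the others. The summed list stood at 1681, 2446, 2823 and 1396 CPM in the first and at 95.5, 435, 206 and 188 CPM in the second. Granzyme B (Gzmb) had 3 UMIs in 1 pDC, the death ligand gene Tnfsf10 had 1 UMI, and Ido1 had none.

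Among cytokine genes, Il12a was a pDC transcript and Ccl4 a variable one. Il12a stood at 79.9, 93.3, 66.6 and 176 CPM in pDCs and at 0.56 to 2.84 CPM elsewhere. It was higher in the combination than in untreated pDCs (log2 ratio 1.17, 0.06 to 2.16) and than with the LTbR agonist (1.42, 0.28 to 2.48), on 13 UMIs in 8 pDCs. Il12b, which encodes the partner chain p40, was found in 6 pDCs, each with exactly 2 selecting genes. Ccl4, an inflammatory chemokine, stood at 655, 258, 549 and 665 CPM in pDCs. It was lower with the STING agonist than untreated (log2 ratio −1.33, −1.75 to −0.95), while other barcodes stood at 763, 1885, 724 and 682 CPM, highest with the STING agonist. Il10 and Il6 were at 0 UMIs.

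Receptors for cytokines and growth factors were lower or higher in the combination by gene. Il2rg, the common gamma chain, stood at 79.9, 108, 130 and 312 CPM, with log2 ratios of the combination of 1.97 to untreated (1.09 to 2.83), 1.54 to the STING agonist (0.69 to 2.37) and 1.28 to the LTbR agonist (0.46 to 2.05). Its level in other barcodes was 141 to 173 CPM in every library. Tgfbr1, a receptor for TGF-β, which restrains pDCs, stood at 412, 556, 266 and 176 CPM, with a log2 ratio of the combination to untreated of −1.17 (−2.17 to −0.40). Tgfbr2 was lower in the combination than with the STING agonist (−1.51, −2.60 to −0.67). Flt3 stood at 350, 413, 373 and 407 CPM, and Il7r, the interleukin-7 receptor, at 569, 538, 429 and 380 CPM. Of the chemokine receptors, Cxcr3 was found in 32 pDCs, and Ccr2 was lower in the combination than with the LTbR agonist (−1.50, −3.30 to −0.33). With at least 3 selecting genes required, these ratios of Tgfbr1, Tgfbr2 and Ccr2 came under the 2-fold limit.

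Cd4 was found in 68 pDCs and Cd8a, both of them coreceptors known on mouse pDC subsets, in 39. Cd4 stood at 138, 75.3, 176 and 231 CPM, with a log2 ratio of the combination to the STING agonist of 1.62 (0.60 to 2.61). Cd8a stood at 64.5, 161, 110 and 95 CPM, with a log2 ratio of the STING agonist to untreated of 1.31 (0.55 to 2.14). The 2 coreceptors thus had opposite orders between untreated and STING agonist pDCs. Secretory pathway genes, which serve the pDC's high output of protein, had 0 of 10 or 12 called in each comparison with untreated, which the shares over all genes (1.67% to 4.00%) also give. Mzb1, a chaperone of antibody-secreting cells, was found in 36.6% of pDCs with 3 to 5 selecting genes and in 0% of those with exactly 2.

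The largest differences with the STING agonist, by a rule that left out genes carried by a single cell, included the phosphodiesterase gene Pde10a (3 against 30 UMIs in untreated and STING agonist pDCs, log2 ratio 3.35, 1.86 to 5.90). With 3 to 5 selecting genes required, Pde10a fell below the floor, as did Wdfy1, described further on. Klf7, a Krüppel-like factor, was found in 8 and 24 pDCs at 27.7 and 144 CPM, a log2 ratio of 2.32 (1.31 to 3.60), which was 1.30 as a mean over cells. Scml4, a Polycomb-type gene, had a log2 ratio of 2.37 (1.42 to 3.58), and Gch1, which makes the cofactor tetrahydrobiopterin, 2.21 (1.28 to 3.36), or 1.41 with 3 to 5 selecting genes. Antxr2, an anthrax toxin receptor, stood at 111 and 484 CPM, a log2 ratio of 2.12 (1.59 to 2.70), and the remaining barcodes had 1.58 for the same gene. The remaining barcodes had −0.07 for Pde10a and −0.56 for Scml4. Bcl2l11, which encodes the pro-apoptotic protein BIM, had 2.01 (1.30 to 2.83), and 1.13 with 3 to 5 selecting genes.

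Genes lower with the STING agonist included Rad51b, a recombination repair gene, at 178 and 25.1 CPM (log2 ratio −2.74, −4.20 to −1.69). Wdfy1, an adaptor in Toll-like receptor signalling, stood at 98.3 and 17.9 CPM (−2.34, −4.17 to −1.08) and at −0.09 in the remaining barcodes. Hhex, a homeobox repressor of early lymphoid and dendritic development, stood at 120 and 35.9 CPM (−1.69, −2.91 to −0.71). Nr3c2, the mineralocorticoid receptor, stood at 101 and 32.3 CPM (−1.59, −2.90 to −0.56). Both were higher in pDCs than elsewhere in every library. The remaining barcodes had log2 ratios of −0.93 for Rad51b, −0.74 for Hhex and −0.36 for Nr3c2.

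With the LTbR agonist, the 4 largest called log2 ratios above 0, within the same limits, were those of Il1rn, Klf4, Cd14 and H2-Q6. Il1rn, the interleukin-1 receptor antagonist, had 1 UMI in untreated pDCs and 32 UMIs in 11 LTbR agonist pDCs, a log2 ratio of 4.55 (2.53 to 10.46). Cd14, the lipopolysaccharide coreceptor, stood at 18.4 and 123 CPM (2.64, 1.48 to 4.28), and Klf4, a factor of monocytes and cDCs, at 18.4 and 150 CPM (2.92, 1.79 to 4.54). In other barcodes Cd14 stood at 869 to 2795 CPM. With at least 3 selecting genes required, Il1rn, Cd14 and Klf4 fell below the floor for a comparison, and Il1rn and Cd14 also did so with marked doublets removed. The LTbR agonist library held 7 of the 10 marked pDCs, and their part in the result was not tested further. Monocyte markers were highest in these same pDCs (456 CPM, 894 CPM with exactly 2 selecting genes), and their part in the result was not tested. H2-Q6, a class Ib MHC gene with close copies, was of another kind, at 27.7, 17.9, 143 and 176 CPM, and at 20.8, 14.7, 168 and 269 CPM with 3 to 5 selecting genes. Its log2 ratio for the LTbR agonist to untreated was 2.31 (1.32 to 3.59). Genes lower with the LTbR agonist included Fcgrt, the neonatal Fc receptor (148 and 36.6 CPM, −1.96, −3.10 to −1.04), and Cd200r1, an inhibitory receptor (123 and 39.9 CPM, −1.58, −2.69 to −0.66).

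Among genes not carried by a single pDC and outside the marker lists, Il2rg had the largest called log2 ratio of the combination to untreated pDCs. It was followed by Ran, a nuclear transport GTPase (58.4 and 217 CPM, 1.90, 0.84 to 2.93), Tkt, an enzyme of the pentose phosphate pathway (89.1 and 299 CPM, 1.75, 0.88 to 2.59), and Socs3, a feedback inhibitor of cytokine signalling (67.6 and 204 CPM, 1.61, 0.54 to 2.60). Itgb3, the integrin β3 chain, stood at 83, 255, 150 and 231 CPM, with log2 ratios to untreated of 1.60 for the STING agonist (0.96 to 2.31) and 1.49 for the combination (0.51 to 2.40). Its level in other barcodes was 16.5 to 21.6 CPM in every library.

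Itsn1, an endocytic scaffold, was found in 28, 35, 22 and 0 pDCs, at 172, 309, 99.9 and 0 CPM. With 0 UMIs, the log2 interval of Itsn1 for the combination has no lower end. The upper end was −1.73 against untreated pDCs and −2.59 against the STING agonist. Cdkal1, a tRNA-modifying enzyme, had 60, 51, 59 and 2 UMIs, a log2 ratio to untreated of −2.45 (−5.84 to −0.85). Neither gene was lower by as much in the remaining barcodes (−0.63 and −0.24). Smad3, a mediator of TGF-β signals, had 15, 42, 22 and 0 UMIs. The upper end of its log2 interval for the combination against the STING agonist was −1.53.

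Il1b, the inflammatory cytokine, was among the genes lower in the combination than with the LTbR agonist. It stood at 209, 850, 639 and 67.9 CPM in pDCs, against 2753, 9618, 4243 and 4528 CPM in other barcodes. With 3 to 5 selecting genes the levels were 149, 176, 297 and 80.8 CPM. The order of the first 3 libraries for all pDCs resembled that of the other barcodes, and their part in the result was not tested. Cd14 and Il1rn were at 0 UMIs in the combination. The upper ends of their log2 intervals against the LTbR agonist were −1.23 and −1.01. Uck2, a uridine-cytidine kinase, had the largest called log2 ratio above 0 in that comparison, within the same limits (56.6 and 204 CPM, 1.85, 0.74 to 2.94).

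**Figure D5:**
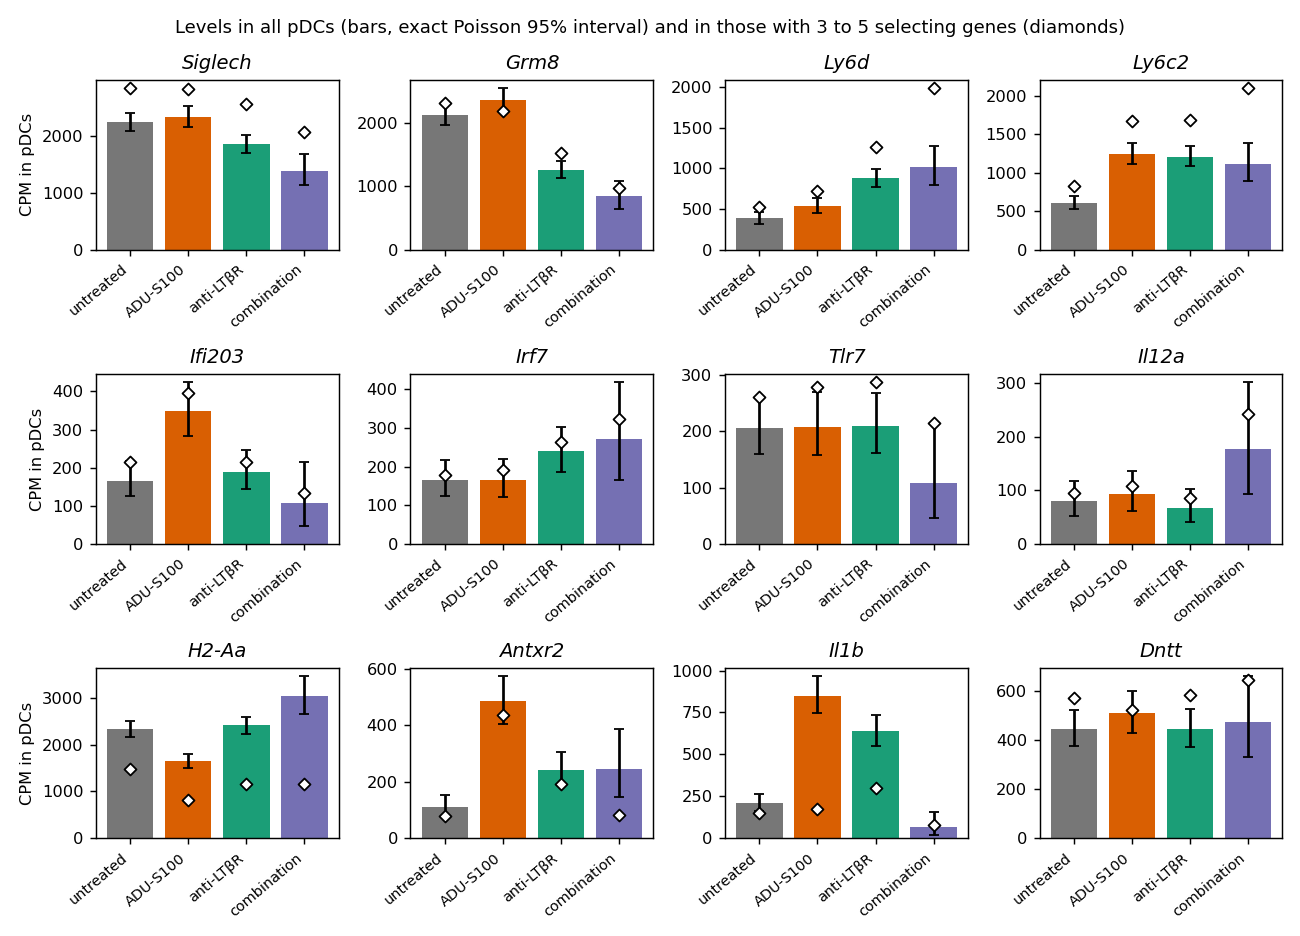
CPM of 12 genes in pDCs of each library (bars from 0, exact Poisson 95% intervals, counting error only), with the level in pDCs with 3 to 5 selecting genes as diamonds. Ly6d and Irf7 are highest and Siglech and Grm8 lowest in the combination, Ifi203 and Antxr2 are highest with the STING agonist, and Il1b is lower in the diamonds than in the bars for the first 3 libraries.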

How the data were processed

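UMI counts per gene and barcode (33696 features) were deposited by the authors as 4 filtered matrices. The matrix headers name Cell Ranger 8.0.1, while the submitters' processing notes name Cell Ranger 7.1.0 and mm10. The study's methods do not mention removal of doublets. Barcodes were filtered as stated in the report, and the 5 comparisons used UMIs summed over pDCs per library, scaled to the library's pDC total. Shares carry exact binomial intervals, ratios of shares log-normal intervals, levels exact Poisson intervals and ratios of levels exact binomial intervals, with 0.5 UMI added for log2 ratios. With 1 library per group no test was made. scanpy's doublet caller marked 0, 0, 1 and 0 barcodes automatically, so it had not worked, and a threshold from an expected 0.4% per 1000 barcodes was used, which marked 305, 949, 857 and 1066. Doublets were kept in the main analysis. Named genes were the 10 largest called differences in each direction per comparison, without genes in which 1 pDC held over 25% of the UMIs of the higher library and without immunoglobulin, T cell receptor, mitochondrial, ribosomal, sex-linked and predicted genes, rule genes and markers of other cells, beside the 15 leading pDC genes and fixed lists. The pDC rule and the lists were chosen with earlier results of these data known. The comparison step was tested on simulated Poisson counts, which had no spread between cells and did not use the floor of 10 pDCs. Tools were Python 3.11.15, numpy 2.4.6, scipy 1.17.1, pandas 2.3.3, scanpy 1.11.5 and matplotlib 3.10.9.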

Additional observations from a re-analysis of the deposited data

Results flagged for a closer look

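The ratios of MHC class II genes in pDCs lay below 0 for the STING agonist alone and above 0 when it was added to the LTbR agonist. However, 0 of 8 genes tested were called lower in the first comparison, against 3.08% of all genes. In the second, 1 of 7 was called higher, against 2.15% of all genes. The median log2 ratio was −0.44 for the STING agonist against untreated, with every gene tested below 0, and 0.41 for the combination against the LTbR agonist, with every gene tested above 0. The medians in the remaining barcodes were −0.35 and 0.27, so the same signs were found outside pDCs. With 1 library per group the difference was not tested. In pDCs with at least 3 selecting genes the medians were −0.63 and 0.06. In pDCs with exactly 2 selecting genes the summed class II level was 30409 CPM with the LTbR agonist and 28959 CPM in the combination, so the second direction was not seen there.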

How the results depend on the processing

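No paired analysis was possible because each group had 1 library. The ratios of the pDC share of kept barcodes kept their direction under every setting tried, but the STING agonist ratio to untreated was 0.617 over barcodes without Csf3r and 0.716 when thinned to 2000 UMIs, and the combination ratio to the STING agonist was 0.238 when thinned. Counts of called genes depended on the floor of UMIs, and with no floor most calls in the combination were higher (70.8%, 61.7% and 55.8% against untreated, the STING agonist and the LTbR agonist). Higher and lower counts are given in the order of the report's 5 comparisons where they moved by over 1.5 times. With no floor, higher counts were 342, 405, 323, 377 and 212, and lower counts moved to 316 and 169 for the single agonists and to 168 for the combination against the LTbR agonist. With a floor of 100 UMIs, higher counts were 32, 28, 3, 13 and 3 and lower counts 15, 6, 23, 65 and 12. With a mean over cells in place of summed UMIs, lower counts were 204, 187, 268, 299 and 254, and higher counts moved to 234 for the LTbR agonist and to 143, 157 and 90 for the combination against untreated, the STING agonist and the LTbR agonist. With at least 3 selecting genes, higher counts moved to 56 for the LTbR agonist and 52 for the combination against untreated, and lower counts to 73 for the STING agonist, 95 for the combination against it and 53 for the combination against the LTbR agonist. The same setting turned 3 values: the NF-κB gene median with the LTbR agonist (from 0.58 to −0.0708), the MHC class II median in the combination against untreated (−0.0703) and the cDC1 gene Wdfy4 in the combination against the STING agonist (−0.21). It also brought log2 ratios under the 2-fold limit, among them Klra17 (−0.58) and Tgfbr1 (−0.86) in the combination against untreated, Cd74 (0.77), Upb1 (−0.92), Tgfbr2 (−0.81) and Zeb2 (−0.70) against the STING agonist, Ccr2 (−0.68) against the LTbR agonist, and Ifi203 (0.87) with the STING agonist against untreated. Other genes, Ran, Map3k14 and Uck2 among them, fell below the floor there. The cause was not tested. Leaving out pDCs with Xcr1, or the deepest pDC of each library, both chosen after seeing the data, moved no count by over 1.5 times. Depth limits the combination most, with 73685 UMIs in 26 pDCs, where a gene at 0 may stand at up to 40.7 CPM.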
